A study of Mus musculus with 8 samples.

Results

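The genes of the DNA replication machinery were followed in mouse lymphoma cells of the Myc-driven line λ820, under an inhibitor of BET bromodomain proteins, an inhibitor of the kinase ATR, or both. Members were chosen by name, from origin recognition to chromatin assembly behind the fork, with earlier results of these data known. Of 48 listed genes, 44 had at least 1 probe on the array under their current or an older symbol, with 65 probes between them. 41 genes passed the detection filter (a detection p-value under 0.05 on each array of some group), out of 7947 genes that passed it in all. Orc1, Pola1 and Pole2 had a probe that was detected on 0 of 8 arrays and were not tested, and Gins1, Gins2, Rfc3 and Rnaseh2a had no named probe. Each of the 41 measured genes was detected on all 8 arrays.

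Cultures of this single cell line received, for 24 h, DMSO alone (the solvent, diluted 1000-fold, as the control), 10 µM RVX2135 (the BET inhibitor), with 10 µM VE-821 (the ATR inhibitor), or with both drugs at those doses. Each group had 2 one-colour Illumina bead arrays, so n = 2 per group for every value below. The labels do not say that replicates came from separate cultures, so p-values measure only how far these samples scatter, and that scatter may be technical. The series asks whether the drugs act synergistically on DNA damage, cell death and stress programmes.

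Replication starts in G1, when the origin recognition complex, Cdc6 and Cdt1 load the ring of Mcm2 to Mcm7 onto DNA, a step called licensing that geminin (Gmnn) blocks later in the cycle. In S phase the kinase Cdc7 with its partner Dbf4 switches the ring on, and Cdc45 and the GINS proteins join it as the working helicase. Polymerases alpha, delta and epsilon then copy the strands. Replication factor C loads the sliding clamp PCNA, which holds delta and epsilon on DNA, while RPA coats single strands and CAF-1 rebuilds chromatin. Many of these genes are transcribed under E2F factors as cells enter S phase, and ATR limits origin firing and protects stalled forks. BET proteins read acetylated histones and promote transcription, among others of genes that Myc drives.

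The arrays were alike in probes detected and in agreement of replicates, but not in brightness. Before normalization the median intensity of the tested genes ran from 151 (DMSO replicate 1) to 97.8 (combination replicate 2). Per array, 11012 to 11478 of 25697 probes were detected, and replicate arrays correlated at 0.995 to 0.996 over the tested genes. Of 8 B lineage markers with a probe, 4 (Cd79a, Cd79b, Cd22 and Ebf1) were detected on all arrays, Vpreb3 on 6 arrays, and Ms4a1, Pax5 and Blk on 0 arrays. All 5 myeloid markers and both erythroid and platelet markers were detected on 0 arrays, and none of the 7 T and NK cell markers or 6 stromal and endothelial markers on all arrays. Pecam1, of the endothelial list, was detected on 7 arrays. Probe intensities do not compare levels between genes, so all values are log2 intensities of 1 gene set against itself.

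The start regions of 5 genes are shown because these genes carry the main results and because each holds a motif of the E2F type. RefSeq promoters (build GRCm38.p6, 250 bases before to 50 after an annotated start) were found for 40 of the 48 genes. The 4 motifs searched on both strands were TTTCGCGC, TTTGGCGC, TTTCCCGC and TTTGGCGG, and matches of different motifs may overlap. At least 1 match was held by 20 of these 40 genes and by 2.7% of all 27025 genes in the promoter table, which also lists non-coding genes. CCAAT was found for 62.5% of the 40 genes and 41.1% of all genes, and the E box CACGTG for 17.5% and 8.09%. Capitals mark the E2F-type matches in the sequences below, which run from 5′ to 3′ on the strand of the gene.
Cdc6, the loader of the MCM ring (chr11:98907901-98908200, plus strand): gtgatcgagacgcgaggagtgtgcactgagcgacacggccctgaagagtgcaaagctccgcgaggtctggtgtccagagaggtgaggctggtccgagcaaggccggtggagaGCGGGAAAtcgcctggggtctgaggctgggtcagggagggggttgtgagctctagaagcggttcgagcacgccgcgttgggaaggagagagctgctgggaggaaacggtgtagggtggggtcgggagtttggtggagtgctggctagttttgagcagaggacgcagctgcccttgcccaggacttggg
Mcm5, a subunit of the ring (chr8:75109259-75109558, plus strand): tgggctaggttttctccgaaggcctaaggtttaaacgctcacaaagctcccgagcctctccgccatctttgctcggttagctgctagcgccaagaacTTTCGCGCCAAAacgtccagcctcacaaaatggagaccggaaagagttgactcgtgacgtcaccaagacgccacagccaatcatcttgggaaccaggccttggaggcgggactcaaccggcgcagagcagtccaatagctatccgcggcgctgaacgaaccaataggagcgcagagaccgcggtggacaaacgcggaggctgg
Gins3, a subunit of the GINS complex (chr8:95633309-95633608, plus strand): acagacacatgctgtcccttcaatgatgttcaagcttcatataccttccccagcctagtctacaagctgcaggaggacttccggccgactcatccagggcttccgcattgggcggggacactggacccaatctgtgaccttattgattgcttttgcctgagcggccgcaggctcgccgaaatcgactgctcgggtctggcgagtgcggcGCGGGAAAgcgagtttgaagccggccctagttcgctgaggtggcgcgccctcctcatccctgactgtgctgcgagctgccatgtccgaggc
Lig1, the ligase that joins Okazaki fragments (chr7:13278576-13278875, plus strand): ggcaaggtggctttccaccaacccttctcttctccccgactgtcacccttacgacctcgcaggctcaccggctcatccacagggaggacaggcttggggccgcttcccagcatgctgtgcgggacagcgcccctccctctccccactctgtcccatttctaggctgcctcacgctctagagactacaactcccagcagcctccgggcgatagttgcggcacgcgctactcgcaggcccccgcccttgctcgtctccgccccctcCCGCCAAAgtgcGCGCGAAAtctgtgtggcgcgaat
Uhrf1, which brings the DNA methyltransferase Dnmt1 to new DNA (chr17:56304063-56304362, plus strand): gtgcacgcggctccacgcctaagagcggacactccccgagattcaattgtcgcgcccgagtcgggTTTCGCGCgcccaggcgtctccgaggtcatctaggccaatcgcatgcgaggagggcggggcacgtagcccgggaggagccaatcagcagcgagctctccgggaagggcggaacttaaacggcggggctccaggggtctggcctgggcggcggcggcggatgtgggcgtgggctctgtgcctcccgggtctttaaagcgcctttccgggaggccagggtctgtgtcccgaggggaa
In Mcm5 the match of TTTCGCGC begins at position -153 from the start and runs into an overlapping match of TTTGGCGC on the other strand. In Lig1 both matches lie after the start. Lig1 has 3 annotated starts in the table and Uhrf1 has 2, and in each gene 1 of the start regions held a match. Of the 5 MCM ring genes that have a listed promoter, 4 held a match, and of the 4 measured clamp and clamp loader genes with one 0 did, which says only that these letters are not in those windows. Rfc3, a loader subunit with no named probe, held 2 matches. All 5 genes shown fell with RVX2135, by the calls given below. Of the measured genes with a promoter, 13 of 26 that fell with RVX2135 held a match, and 2 of 8 not called. With both drugs it was 12 of 25 that fell, 3 of 6 not called and 1 of 4 that rose. Whether a match goes with a fall was not tested.

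RVX2135 lowered most of the replication genes, VE-821 lowered fewer of them, and both drugs together lowered as many as RVX2135 alone. A gene is called here if limma's adjusted p, over all 7947 genes of a comparison, is under 0.05. With RVX2135, 30 of 41 fell and 1 (Orc4) rose, or 73.2% and 2.44%, where 15.4% of all genes tested fell and 15% rose. With VE-821, 19 fell and 1 (Cdt1) rose, or 46.3% and 2.44%, beside 11.7% and 12.1% of all genes. This count of 20 was 8 without VE-821 replicate 2, 9 without DMSO replicate 1, 10 without VE-821 replicate 1 and 11 without DMSO replicate 2. With both drugs 30 fell and 4 rose, or 73.2% and 9.76%, beside 30.8% and 28.9% of all genes. 14 genes fell in all 3 treatments, 10 with RVX2135 and with both drugs but not with VE-821, and 5 with VE-821 and with both drugs but not with RVX2135. These overlaps were not counted over all genes. The median log2 change of the 41 genes was -0.53 with RVX2135, -0.31 with VE-821 and -0.51 with both. The median of all genes tested was within 0.02 of 0 in each, a value that quantile normalization holds near 0. A shift of all genes together would therefore not show, and the changes are relative to the other genes of an array. By their brightest probe, Gmnn, Orc5 and Prim1 were called in none of the 3 comparisons, which all share the DMSO arrays. Arrays did not overlap with DMSO for 38 of the 41 genes with RVX2135, 34 with VE-821 and 37 with both drugs. Of all genes tested 66.4%, 63.9% and 80.1% did not overlap there, and 63.9% to 75% did not between treatments. Lack of overlap is therefore common, and how many of all genes kept all 4 groups apart was not counted. RNA of a whole culture was measured, so fewer cells that express a gene and less transcript per cell cannot be told apart.

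**Figure D1:**
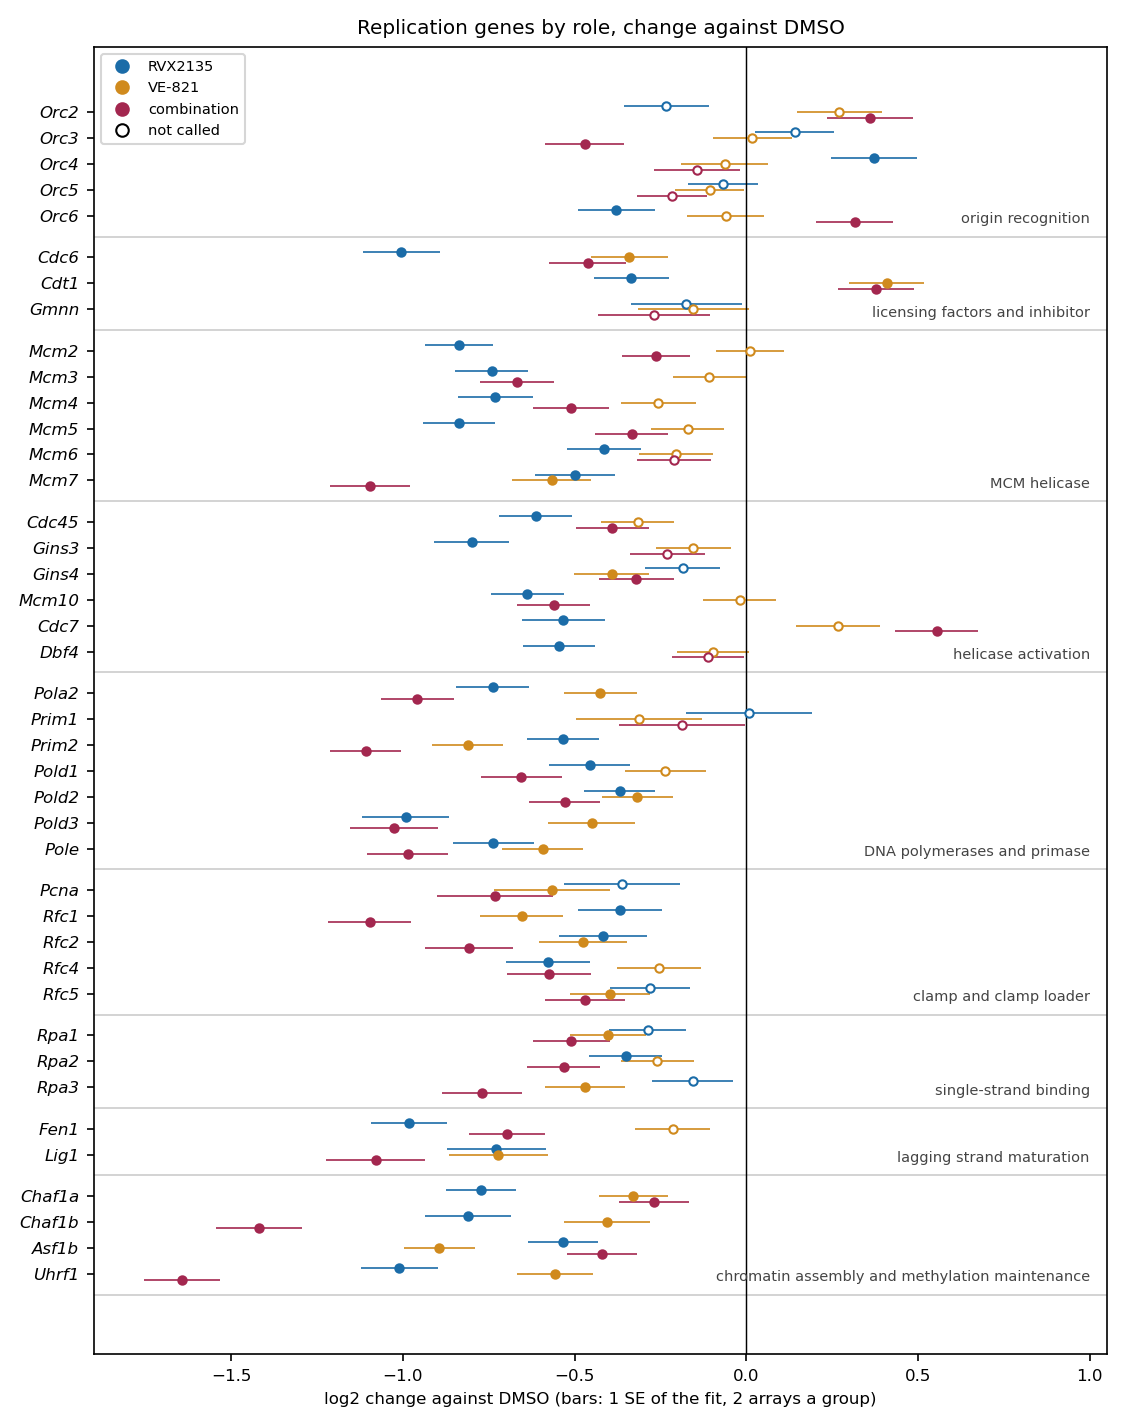
Log2 change of each measured replication gene against DMSO (x axis) by role (y axis), with RVX2135 (blue), VE-821 (orange) and both drugs (red). Bars are 1 SE of the fit, filled points are called and open points are not. The MCM ring genes other than Mcm7 lie at -0.84 to -0.41 in blue and at -0.26 to 0.01 in orange, while Uhrf1 and Chaf1b lie farthest left in red, at -1.64 and -1.42.

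All 6 genes of the MCM ring, the core of the replicative helicase, fell with RVX2135, and 1 of the 6, Mcm7, fell with VE-821 by its brightest probe. Of the 3 other Mcm6 probes, 2 were also called lower with VE-821 (-0.40, adjusted p = 0.0499, and -0.40, adjusted p = 0.0401). The median change was -0.74 with RVX2135, -0.19 with VE-821 and -0.42 with both drugs. Mcm2 measured 9.67 and 9.59 with DMSO, 8.84 and 8.74 with RVX2135, 9.66 and 9.61 with VE-821, and 9.37 and 9.36 with both drugs (log2 intensity, replicate 1 then replicate 2). Its VE-821 arrays lay within the range of DMSO, and its RVX2135 arrays were the lowest of the 4 groups. Mcm2 fell by 0.84 with RVX2135 (SE 0.10, adjusted p = 0.000112), or 1.79-fold, and was 0.01 with VE-821 (SE 0.10, 95% interval -0.21 to 0.23). Mcm5 measured 11.47 and 11.44 with DMSO, 10.70 and 10.54 with RVX2135, 11.29 and 11.27 with VE-821, and 11.05 and 11.20 with both drugs. No 2 groups of Mcm5 overlapped, with RVX2135 lowest, and it fell by 0.84 with RVX2135 (SE 0.11, adjusted p = 0.000177) but was -0.17 with VE-821 (SE 0.11, adjusted p = 0.279).

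The arrays of Mcm3 gave 8.46 and 8.38 with DMSO, 7.70 and 7.66 with RVX2135, 8.34 and 8.29 with VE-821, and 7.65 and 7.86 with both drugs. Those of Mcm4 gave 11.81 and 11.72 with DMSO, 11.14 and 10.93 with RVX2135, 11.57 and 11.45 with VE-821, and 11.23 and 11.28 with both drugs. In both genes RVX2135 and both drugs were lower than DMSO on every array, and Mcm3 with both drugs overlapped with RVX2135 alone. Mcm3 fell by 0.74 with RVX2135 (SE 0.11, adjusted p = 0.000425) and by 0.67 with both drugs (SE 0.11, adjusted p = 0.000214). Mcm4 fell by 0.73 (SE 0.11, adjusted p = 0.000565) and 0.51 (SE 0.11, adjusted p = 0.00184).

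Mcm7 differed from the other ring genes in its order of groups, at 8.28 and 8.41 with DMSO, 7.86 and 7.83 with RVX2135, 7.92 and 7.64 with VE-821, and 7.21 and 7.29 with both drugs. The RVX2135 and VE-821 arrays of Mcm7 overlapped, and the arrays with both drugs were lowest. It fell by 0.50 with RVX2135 (SE 0.12, adjusted p = 0.00769), by 0.57 with VE-821 (SE 0.12, adjusted p = 0.00488) and by 1.10 with both (SE 0.12, adjusted p = 9.25e-06), or 2.14-fold. Mcm6 measured 11.09 and 11.09 with DMSO, 10.74 and 10.61 with RVX2135, 10.88 and 10.88 with VE-821, and 10.78 and 10.98 with both drugs. It fell by 0.41 with RVX2135 (SE 0.11, adjusted p = 0.0137), and its value with both drugs was -0.21 (SE 0.11, adjusted p = 0.115), although its 3 other probes were called lower there (given with the other probes further on). With 1 array left out, calls were lost for Mcm6 with RVX2135 (highest adjusted p = 0.0989, without RVX2135 replicate 2), Mcm7 with RVX2135 (highest adjusted p = 0.0628, without DMSO replicate 2), Mcm7 with VE-821 (highest adjusted p = 0.0619, without VE-821 replicate 2), Mcm2 with both drugs (highest adjusted p = 0.179, without DMSO replicate 1) and Mcm5 with both drugs (highest adjusted p = 0.106, without combination replicate 1).

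**Figure D2:**
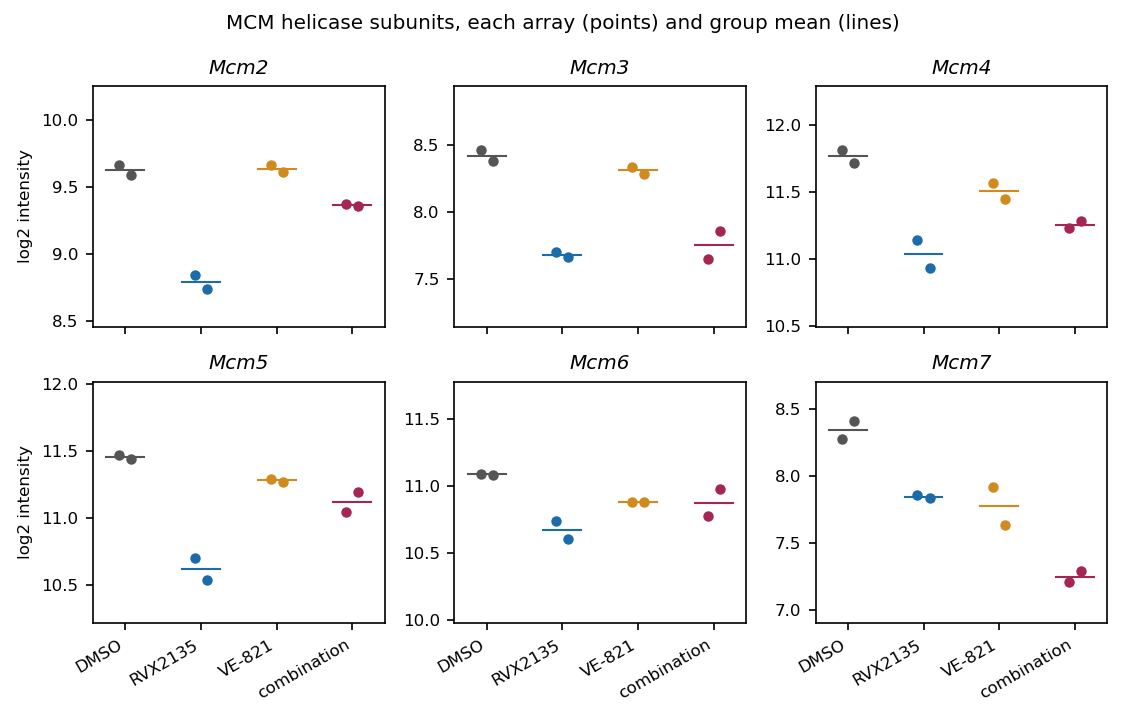
Log2 intensity (y axis) of Mcm2 to Mcm7 on each of the 8 arrays (points) with the group means (lines). Each panel spans the same range of log2 units. By the brightest probe of each gene, shown here, RVX2135 has the lowest mean for Mcm2 to Mcm6, and both drugs together for Mcm7 alone. Among the probes not shown, both drugs have the lowest mean for Mcm4 and for some of Mcm6, without a called difference from RVX2135.

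Of the licensing factors Cdc6 fell in all 3 treatments, and Cdt1 went opposite ways with the single drugs. Cdc6, the ATPase that helps load the ring, measured 8.93 and 8.88 with DMSO, 8.04 and 7.76 with RVX2135, 8.58 and 8.54 with VE-821, and 8.47 and 8.42 with both drugs. No 2 groups overlapped, and RVX2135 was lowest. It fell by 1.01 with RVX2135 (SE 0.11, adjusted p = 7.61e-05), or 2.01-fold, by 0.34 with VE-821 (SE 0.11, adjusted p = 0.0478) and by 0.46 with both (SE 0.11, adjusted p = 0.00402). Cdt1, the partner of Cdc6 that carries the ring to origins and is degraded once S phase begins, measured 10.32 and 10.51 with DMSO, 10.04 and 10.12 with RVX2135, 10.75 and 10.90 with VE-821, and 10.83 and 10.76 with both drugs. The RVX2135 arrays lay below DMSO, and those with VE-821 and with both drugs lay above it and overlapped each other. Cdt1 fell by 0.34 with RVX2135 (SE 0.11, adjusted p = 0.0385), and it rose by 0.41 with VE-821 (SE 0.11, adjusted p = 0.0202) and by 0.38 with both (SE 0.11, adjusted p = 0.011). Gmnn, the inhibitor of Cdt1, was not called, with -0.17, -0.15 and -0.27 in these comparisons. Without 1 array, calls were lost for Cdt1 with RVX2135 (highest adjusted p = 0.241, without DMSO replicate 2), Cdc6 with VE-821 (highest adjusted p = 0.209, without DMSO replicate 1), Cdt1 with VE-821 (highest adjusted p = 0.165, without DMSO replicate 1) and Cdt1 with both drugs (highest adjusted p = 0.104, without DMSO replicate 1).

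The origin recognition genes, whose products mark where the ring is loaded, showed no common direction. Of 5 measured, 1 fell and 1 rose with RVX2135, 0 were called with VE-821, and 1 fell and 2 rose with both drugs. Orc6 measured 9.99 and 10.10 with DMSO, 9.71 and 9.62 with RVX2135, 10.05 and 9.92 with VE-821, and 10.25 and 10.47 with both drugs. Its RVX2135 arrays were below DMSO and those with both drugs above, with a fall of 0.38 (SE 0.11, adjusted p = 0.0262) and a rise of 0.32 (SE 0.11, adjusted p = 0.0309). Orc3 measured 5.44 and 5.50 with DMSO, 5.59 and 5.64 with RVX2135, 5.63 and 5.36 with VE-821, and 5.07 and 4.94 with both drugs, so that the arrays with both drugs alone lay below all others, and it fell there by 0.47 (SE 0.11, adjusted p = 0.0041). Orc2 measured 5.32 and 5.30 with DMSO, 5.21 and 4.94 with RVX2135, 5.55 and 5.60 with VE-821, and 5.80 and 5.53 with both drugs, with RVX2135 lowest and VE-821 within the range of both drugs, and it rose by 0.36 with both drugs (SE 0.12, adjusted p = 0.0265). Orc4 measured 5.71 and 5.46 with DMSO, 5.90 and 6.01 with RVX2135, 5.51 and 5.52 with VE-821, and 5.30 and 5.58 with both drugs, with RVX2135 above the other 3 groups, which overlapped, and it rose by 0.37 with RVX2135 (SE 0.13, adjusted p = 0.0441). Orc5 was at -0.07, -0.11 and -0.22 by its brightest probe, not called. When every kept probe was tested, its second probe, detected on 8 arrays, was called lower with both drugs (-0.27, adjusted p = 0.04). Orc2, Orc3 and Orc4 were dim on these arrays, with log2 values of 4.94 to 6.01, and Orc2 and Orc4 each had a second probe whose value with both drugs had the other sign. Calls lost with 1 array left out were those of Orc4 with RVX2135 (highest adjusted p = 0.277, without DMSO replicate 2), Orc6 with RVX2135 (highest adjusted p = 0.147, without DMSO replicate 2), Orc2 with both drugs (highest adjusted p = 0.195, without combination replicate 1) and Orc6 with both drugs (highest adjusted p = 0.208, without combination replicate 2). Scaling the arrays to a common 75th percentile in place of quantile normalization also ended the call of Orc6 with both drugs, and without the detection filter that of Orc2 was lost.

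Genes that turn the loaded ring into a working helicase fell with RVX2135 and mostly not with VE-821. Of 6 measured, 5 fell with RVX2135 (median -0.58), 1 with VE-821 (median -0.13), and with both drugs 3 fell and 1 rose (median -0.28). Cdc7, the catalytic subunit of the kinase that triggers origin firing, measured 9.14 and 8.96 with DMSO, 8.60 and 8.44 with RVX2135, 9.20 and 9.43 with VE-821, and 9.53 and 9.68 with both drugs. No 2 groups of Cdc7 overlapped, with RVX2135 lowest and both drugs highest. It fell by 0.53 with RVX2135 (SE 0.12, adjusted p = 0.00674) and rose by 0.55 with both drugs (SE 0.12, adjusted p = 0.00202), and its value with VE-821 was 0.27 (SE 0.12, adjusted p = 0.14). Dbf4, the regulatory partner of Cdc7, measured 9.89 and 9.72 with DMSO, 9.24 and 9.28 with RVX2135, 9.68 and 9.73 with VE-821, and 9.63 and 9.75 with both drugs. The RVX2135 arrays of Dbf4 were the lowest and the other 3 groups overlapped, and it fell by 0.54 with RVX2135 (SE 0.11, adjusted p = 0.00263) with -0.10 and -0.11 in the other treatments.

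Gins3 and Cdc45, parts of the active helicase, also fell with RVX2135. Gins3 measured 6.58 and 6.65 with DMSO, 5.92 and 5.71 with RVX2135, 6.47 and 6.45 with VE-821, and 6.32 and 6.45 with both drugs. RVX2135 lay below the other groups, a fall of 0.80 with RVX2135 (SE 0.11, adjusted p = 0.000305). Against DMSO it was -0.15 with VE-821 and -0.23 with both drugs, neither called. Cdc45 measured 8.40 and 8.62 with DMSO, 7.89 and 7.90 with RVX2135, 8.15 and 8.23 with VE-821, and 8.11 and 8.13 with both drugs. No 2 groups overlapped and RVX2135 was lowest, a fall of 0.61 with RVX2135 (SE 0.11, adjusted p = 0.00141) and of 0.39 with both drugs (SE 0.11, adjusted p = 0.00786). Mcm10, which helps the helicase open DNA and is no part of the ring, measured 10.09 and 10.20 with DMSO, 9.59 and 9.42 with RVX2135, 10.16 and 10.09 with VE-821, and 9.53 and 9.63 with both drugs. RVX2135 and both drugs overlapped below DMSO, and VE-821 overlapped with DMSO. Mcm10 fell by 0.64 with RVX2135 (SE 0.11, adjusted p = 0.0011) and by 0.56 with both drugs (SE 0.11, adjusted p = 0.000755). Gins4, another GINS subunit, measured 9.49 and 9.73 with DMSO, 9.47 and 9.38 with RVX2135, 9.23 and 9.20 with VE-821, and 9.30 and 9.28 with both drugs. VE-821 was its lowest group, without overlap, and it fell by 0.39 with VE-821 (SE 0.11, adjusted p = 0.0245) and by 0.32 with both drugs (SE 0.11, adjusted p = 0.0252). Calls lost with 1 array left out, Cdc7 and Dbf4 included, were those of Cdc7 with RVX2135 (highest adjusted p = 0.0694, without DMSO replicate 1), Gins4 with VE-821 (highest adjusted p = 0.2, without DMSO replicate 2), Cdc45 with both drugs (highest adjusted p = 0.0924, without DMSO replicate 2) and Gins4 with both drugs (highest adjusted p = 0.229, without DMSO replicate 2).

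Most polymerase and primase genes fell, and all but Prim1 had their lowest group mean with both drugs. Of 7 measured, 6 fell with RVX2135 (median -0.53), 5 with VE-821 (median -0.43) and 6 with both drugs (median -0.96), and none was higher. Prim2, the large subunit of primase, measured 7.56 and 7.65 with DMSO, 7.04 and 7.10 with RVX2135, 6.86 and 6.72 with VE-821, and 6.55 and 6.44 with both drugs. Its 4 groups did not overlap and went down from DMSO over RVX2135 and VE-821 to both drugs. Prim2 fell by 0.53 with RVX2135 (SE 0.10, adjusted p = 0.00283), by 0.81 with VE-821 (SE 0.10, adjusted p = 0.000229) and by 1.11 with both (SE 0.10, adjusted p = 3.52e-06), or 2.16-fold. Prim1, the catalytic subunit, measured 6.48 and 6.39 with DMSO, 6.22 and 6.67 with RVX2135, 6.22 and 6.03 with VE-821, and 5.97 and 6.53 with both drugs. Its RVX2135 arrays spanned both DMSO arrays, and it was not called in any comparison, with a 95% interval for both drugs from -0.59 to 0.22.

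Pola2, the second subunit of polymerase alpha, measured 8.97 and 9.02 with DMSO, 8.35 and 8.16 with RVX2135, 8.64 and 8.51 with VE-821, and 8.04 and 8.04 with both drugs. Its groups did not overlap, both drugs were lowest, and it fell by 0.96 with both drugs (SE 0.11, adjusted p = 1.31e-05). Pold3, an accessory subunit of polymerase delta, measured 8.53 and 8.33 with DMSO, 7.57 and 7.30 with RVX2135, 8.09 and 7.87 with VE-821, and 7.41 and 7.40 with both drugs. The RVX2135 arrays of Pold3 overlapped with those of both drugs, at falls of 0.99 (SE 0.13, adjusted p = 0.000206) and 1.03 (SE 0.13, adjusted p = 3.29e-05). Pole, the catalytic subunit of polymerase epsilon, measured 8.31 and 8.14 with DMSO, 7.58 and 7.39 with RVX2135, 7.60 and 7.67 with VE-821, and 7.13 and 7.34 with both drugs, with changes of -0.74, -0.59 and -0.99 (adjusted p = 0.000849, 0.00416 and 2.39e-05). Every treated array of Pole lay below both DMSO arrays. Pold1, the catalytic subunit of polymerase delta, measured 10.35 and 10.36 with DMSO, 9.92 and 9.87 with RVX2135, 10.10 and 10.13 with VE-821, and 9.53 and 9.86 with both drugs. The 4 groups did not overlap, and it fell by 0.46 with RVX2135 (SE 0.12, adjusted p = 0.0132) and by 0.66 with both drugs (SE 0.12, adjusted p = 0.000538). Pold2, its partner, fell in all 3 treatments (-0.37, -0.32 and -0.53). Leaving out 1 array ended the calls of Pold1 with RVX2135 (highest adjusted p = 0.0771, without RVX2135 replicate 2), Pold2 with RVX2135 (highest adjusted p = 0.113, without RVX2135 replicate 1), Pola2 with VE-821 (highest adjusted p = 0.114, without VE-821 replicate 2), Pold2 with VE-821 (highest adjusted p = 0.197, without VE-821 replicate 2) and Pold3 with VE-821 (highest adjusted p = 0.192, without VE-821 replicate 2).

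For the clamp and its loader, all 5 measured genes fell with both drugs, and more of them fell with VE-821 (4) than with RVX2135 (3), a difference of counts that was not itself tested. The medians were -0.37 with RVX2135, -0.48 with VE-821 and -0.73 with both. Rfc1, the large subunit of the loader, measured 9.94 and 9.80 with DMSO, 9.64 and 9.36 with RVX2135, 9.21 and 9.22 with VE-821, and 8.69 and 8.86 with both drugs. No 2 groups overlapped, and the order went down from DMSO over RVX2135 and VE-821 to both drugs. Rfc1 fell by 0.37 with RVX2135 (SE 0.12, adjusted p = 0.0399), by 0.65 with VE-821 (SE 0.12, adjusted p = 0.0027) and by 1.10 with both (SE 0.12, adjusted p = 1.28e-05). Pcna, the clamp, measured 8.58 and 8.75 with DMSO, 8.23 and 8.38 with RVX2135, 7.94 and 8.26 with VE-821, and 7.67 and 8.20 with both drugs. The replicates of Pcna differed more than those of most genes here, and the falls were 0.57 with VE-821 (SE 0.17, adjusted p = 0.0322) and 0.73 with both (SE 0.17, adjusted p = 0.00287). Its value with RVX2135 was -0.36 and not called (adjusted p = 0.132).

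Of the small loader subunits, Rfc2 fell with RVX2135, VE-821 and both (-0.42, -0.48 and -0.81). Rfc4 measured 9.62 and 9.60 with DMSO, 9.05 and 9.02 with RVX2135, 9.24 and 9.47 with VE-821, and 9.17 and 8.90 with both drugs, and it fell by 0.58 with RVX2135 (SE 0.12, adjusted p = 0.00445) and by 0.57 with both (SE 0.12, adjusted p = 0.00166). Rfc5 measured 8.46 and 8.62 with DMSO, 8.24 and 8.29 with RVX2135, 8.12 and 8.17 with VE-821, and 7.94 and 8.21 with both drugs, and it fell by 0.40 with VE-821 (SE 0.12, adjusted p = 0.0294) and by 0.47 with both (SE 0.12, adjusted p = 0.00451). Every treated array of Rfc4 and of Rfc5 lay below both DMSO arrays of the same gene. Without 1 array, calls were lost for Rfc1 with RVX2135 (highest adjusted p = 0.274, without RVX2135 replicate 2), Rfc2 with RVX2135 (highest adjusted p = 0.182, without DMSO replicate 2), Pcna with VE-821 (highest adjusted p = 0.201, without VE-821 replicate 1), Rfc2 with VE-821 (highest adjusted p = 0.139, without DMSO replicate 2) and Rfc5 with VE-821 (highest adjusted p = 0.179, without DMSO replicate 2).

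The 3 genes of RPA, the complex that coats single-stranded DNA and through which ATR is recruited, all fell with both drugs (median -0.53). Rpa3, the smallest subunit, measured 9.94 and 9.84 with DMSO, 9.59 and 9.89 with RVX2135, 9.44 and 9.40 with VE-821, and 9.09 and 9.15 with both drugs. One RVX2135 array of Rpa3 lay within the DMSO range, and the VE-821 arrays lay below it. Rpa3 fell by 0.47 with VE-821 (SE 0.12, adjusted p = 0.0137) and by 0.77 with both (SE 0.12, adjusted p = 0.00015), and was -0.16 with RVX2135 (SE 0.12, adjusted p = 0.343). Rpa1, the large subunit, measured 11.23 and 11.10 with DMSO, 10.92 and 10.84 with RVX2135, 10.68 and 10.84 with VE-821, and 10.58 and 10.74 with both drugs, and it fell by 0.40 with VE-821 (SE 0.11, adjusted p = 0.0227) and by 0.51 with both (SE 0.11, adjusted p = 0.00201). Rpa2 measured 8.52 and 8.69 with DMSO, 8.27 and 8.24 with RVX2135, 8.41 and 8.28 with VE-821, and 8.12 and 8.03 with both drugs, and it fell by 0.35 with RVX2135 (SE 0.11, adjusted p = 0.0281) and by 0.53 with both (SE 0.11, adjusted p = 0.00113). Both genes were below DMSO on every treated array. The calls lost without 1 array were those of Rpa2 with RVX2135 (highest adjusted p = 0.188, without DMSO replicate 2), Rpa1 with VE-821 (highest adjusted p = 0.156, without DMSO replicate 1) and Rpa3 with VE-821 (highest adjusted p = 0.0962, without DMSO replicate 1).

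Of the genes that finish the lagging strand, Fen1 was lowest with RVX2135 and Lig1 with both drugs. Fen1, the nuclease that trims Okazaki fragments, measured 10.60 and 10.49 with DMSO, 9.65 and 9.48 with RVX2135, 10.38 and 10.28 with VE-821, and 9.93 and 9.77 with both drugs. RVX2135 gave the lowest arrays, and the groups did not overlap. Fen1 fell by 0.98 with RVX2135 (SE 0.11, adjusted p = 7.61e-05) and by 0.70 with both (SE 0.11, adjusted p = 0.000197), and was -0.22 with VE-821 (SE 0.11, adjusted p = 0.188). Lig1 measured 10.00 and 9.97 with DMSO, 9.42 and 9.10 with RVX2135, 9.40 and 9.12 with VE-821, and 8.76 and 9.05 with both drugs. Its RVX2135 and VE-821 arrays overlapped, both below DMSO and above both drugs. Lig1 fell by 0.73 with RVX2135 (SE 0.14, adjusted p = 0.00308), by 0.72 with VE-821 (SE 0.14, adjusted p = 0.00423) and by 1.08 with both (SE 0.14, adjusted p = 5.61e-05). These calls of Fen1 and Lig1 against DMSO held with each array left out in turn.

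All 4 genes of chromatin assembly and methylation maintenance fell in all 3 treatments, and Uhrf1 and Chaf1b had the largest falls of the 41 genes with both drugs. Uhrf1 measured 11.49 and 11.45 with DMSO, 10.56 and 10.35 with RVX2135, 10.88 and 10.95 with VE-821, and 9.75 and 9.91 with both drugs. No 2 groups overlapped, and both drugs together were lowest. Uhrf1 fell by 1.01 with RVX2135 (SE 0.11, adjusted p = 6.87e-05), by 0.56 with VE-821 (SE 0.11, adjusted p = 0.00423) and by 1.64 with both (SE 0.11, adjusted p = 2.63e-07), or 3.12-fold. Chaf1b, the middle subunit of the histone chaperone CAF-1, measured 8.40 and 8.53 with DMSO, 7.60 and 7.72 with RVX2135, 8.08 and 8.04 with VE-821, and 6.88 and 7.22 with both drugs. Its groups kept the same order without overlap, and the fall with both drugs was 1.42 (SE 0.13, adjusted p = 2.08e-06), or 2.68-fold, beside 0.81 with RVX2135 (SE 0.13, adjusted p = 0.000682) and 0.41 with VE-821 (SE 0.13, adjusted p = 0.0367).

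Chaf1a, the large subunit of the same complex, was lowest in another treatment than Chaf1b. It measured 8.43 and 8.52 with DMSO, 7.72 and 7.69 with RVX2135, 8.08 and 8.22 with VE-821, and 8.19 and 8.23 with both drugs. RVX2135 was lowest, and VE-821 and both drugs overlapped just below DMSO. Chaf1a fell by 0.77 with RVX2135 (SE 0.10, adjusted p = 0.00023), by 0.33 with VE-821 (SE 0.10, adjusted p = 0.0364) and by 0.27 with both (SE 0.10, adjusted p = 0.0384). Asf1b, which hands histones to CAF-1, measured 7.76 and 7.89 with DMSO, 7.23 and 7.36 with RVX2135, 6.92 and 6.94 with VE-821, and 7.41 and 7.41 with both drugs. VE-821 gave its lowest arrays, without overlap with any other group, and Asf1b fell by 0.89 with VE-821 (SE 0.10, adjusted p = 9.26e-05), by 0.53 with RVX2135 (SE 0.10, adjusted p = 0.00249) and by 0.42 with both (SE 0.10, adjusted p = 0.00397). Among these chromatin genes, calls were lost without 1 array for Chaf1a with VE-821 (highest adjusted p = 0.205, without VE-821 replicate 1), Chaf1b with VE-821 (highest adjusted p = 0.186, without DMSO replicate 2) and Chaf1a with both drugs (highest adjusted p = 0.187, without DMSO replicate 2).

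Set side by side on each array, the roles fell into different orders of treatment. For the MCM ring, the median difference from the DMSO mean was -0.67 and -0.80 on the RVX2135 arrays, -0.18 and -0.19 on the VE-821 arrays and -0.47 and -0.38 with both drugs. Helicase activation had the same order, at -0.56 and -0.61, -0.13 and -0.12 and -0.30 and -0.25. In both roles the arrays with both drugs lay between those of the single drugs, by the brightest probe of each gene. For the ring this order depends on the probes used. With both drugs against RVX2135, the brightest probes of Mcm4 and Mcm6 were 0.22 and 0.20, neither called. The other probes were -0.03 and -0.04 for Mcm4, and 0.15, -0.03 and -0.08 for Mcm6, none called. Polymerases and primase stood at -0.56 and -0.51, -0.34 and -0.49 and -0.96 and -0.88, and clamp and loader at -0.44 and -0.35, -0.52 and -0.40 and -0.97 and -0.64. In these roles the arrays with both drugs were the lowest. These medians describe groups of 2 to 7 genes, and no test was made between roles.

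**Figure D3:**
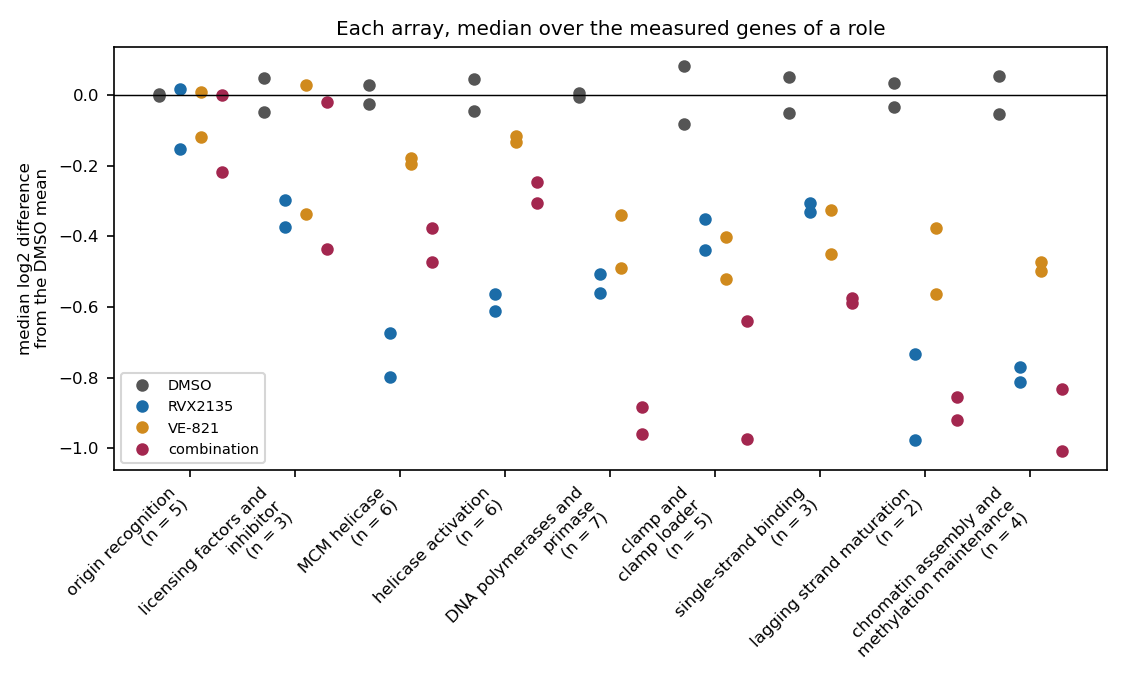
Median log2 difference from the DMSO mean over the measured genes of each role (y axis), 1 point per array, for the 9 roles (x axis). With both drugs (red) the MCM ring and helicase activation lie above RVX2135 alone (blue), while polymerases, clamp and single-strand binding lie below it. Each gene enters by its brightest probe.

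Setting the single drugs against each other tested where they differ. Of the 41 genes 17 were lower with RVX2135 than with VE-821 and 2 were higher, or 41.5% and 4.88%, where 13.3% and 13.2% of all genes were called. The lower genes included 4 of 6 in the ring, 4 of 6 in helicase activation, both measured licensing factors other than Gmnn, 2 of 7 polymerase and primase genes and 0 of 5 clamp and loader genes. The last count depends on the probe. Rfc4 was -0.32 by its brightest probe, not called. When every kept probe was tested, its second probe was called lower (-0.35, adjusted p = 0.0396). Mcm2 differed by -0.85 (SE 0.10, adjusted p = 9.43e-05), Cdc7 -0.80 (SE 0.12, adjusted p = 0.000609), Fen1 -0.77 (SE 0.11, adjusted p = 0.000418) and Cdt1 -0.74 (SE 0.11, adjusted p = 0.000504). Gins3, Cdc6, Mcm3, Mcm5 and Mcm10 were also lower, by 0.62 to 0.67 on that scale. These 9 calls held with each of the 8 arrays left out in turn, and the other 8 did not. The genes higher with RVX2135 were Asf1b at 0.36 (SE 0.10, adjusted p = 0.0236) and Orc4 at 0.44 (SE 0.13, adjusted p = 0.0253), and both calls ended when RVX2135 replicate 2 was left out (adjusted p = 0.133 and 0.131). The count of 19 fell to 11 without RVX2135 replicate 2 or without VE-821 replicate 2. For Rfc1, with the larger fall under VE-821, the difference was 0.29 (95% interval 0.02 to 0.55) and not called, and for Pcna it was 0.20 (95% interval -0.17 to 0.58).

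Adding VE-821 to RVX2135 raised some replication genes and lowered others further, in shares near those of all genes. Against RVX2135 alone 11 of 41 were higher with both drugs and 9 lower, or 26.8% and 22%, beside 24.8% and 26.4% of all genes. Of the 30 genes that fell with RVX2135, 10 were higher with both drugs than with RVX2135 alone, 6 were lower and 14 were not called. That split was not counted over all genes, and both comparisons share the RVX2135 arrays. Cdc7 was 1.09 higher (SE 0.12, adjusted p = 2.52e-05), or 2.12-fold, Cdt1 0.71 (SE 0.11, adjusted p = 0.000256), Orc6 0.69 (SE 0.11, adjusted p = 0.000385) and Mcm2 0.57 (SE 0.10, adjusted p = 0.000583). Gins3, Cdc6, Mcm5, Chaf1a and Dbf4 were higher by 0.43 to 0.57, and Orc2 by 0.59. For Fen1 the difference was 0.28 (SE 0.11, adjusted p = 0.0489), and leaving out any of 6 arrays ended this call (highest adjusted p = 0.243, for RVX2135 replicate 2), as did the authors' normalized values. Rfc1 (-0.73), Uhrf1 (-0.63), Rpa3 (-0.61), Orc3 (-0.61), Chaf1b (-0.61), Mcm7 (-0.60) and Prim2 (-0.57) were lower, and these 7 calls held with every array left out in turn. The calls of Orc4 (-0.52) and Rfc2 (-0.39) were lost without combination replicate 1 (adjusted p = 0.0527 and 0.208), and that of Rfc2 also without RVX2135 replicate 2 (0.133).

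Adding RVX2135 to VE-821 lowered more of the genes than it raised. Against VE-821 alone 16 of 41 were lower with both drugs and 2 higher, or 39% and 4.88%, beside 25.8% and 24.9% of all genes. Uhrf1 stood at -1.09 (SE 0.11, adjusted p = 1.28e-05) and Chaf1b at -1.01 (SE 0.13, adjusted p = 5.08e-05). Pold3 (-0.58), Mcm3 (-0.56), Mcm10 (-0.54), Pola2 (-0.53), Mcm7 (-0.53) and Fen1 (-0.48) were lower as well, and these 8 calls held without any 1 array. The other 8, Orc3, Mcm2, Prim2, Pold1, Pole, Rfc1, Rfc2 and Rfc4, each lost the call without some array. Asf1b was 0.47 higher (SE 0.10, adjusted p = 0.00253), which also held, and Orc6 0.38 higher (SE 0.11, adjusted p = 0.0163), a call that ended when VE-821 replicate 2 (0.108) or combination replicate 2 (0.124) was left out. 7 genes were lower with both drugs than with either drug alone and than with DMSO. They were Orc3, Mcm7, Prim2, Rfc1, Rfc2, Chaf1b and Uhrf1. How many of all genes did the same was not counted, so the 7 are not read as more than the background. The call against VE-821 was lost for Orc3 and Prim2 without VE-821 replicate 1 (adjusted p = 0.0572 and 0.202) and for Rfc1 and Rfc2 without combination replicate 1 (0.0713 and 0.351). The calls of Mcm7, Chaf1b and Uhrf1 against both single drugs held.

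The interaction, which is the effect of both drugs minus the sum of the single effects on the log2 scale, was called for 13 of 41 genes. It was positive for 12 and negative for Orc3, or 29.3% and 2.44%, beside 13.1% and 15.5% of all genes. Asf1b had a sum of single effects of -1.43 and a measured change of -0.42, an interaction of 1.01 (SE 0.14, adjusted p = 0.00062). Cdc6 had a sum of -1.35 and a measured change of -0.46 (interaction 0.88, SE 0.16, adjusted p = 0.00236). For Cdc7 the sum was -0.27 and the measured change 0.55, of opposite sign (interaction 0.82, SE 0.17, adjusted p = 0.00528), and Orc6 likewise went from -0.44 to 0.32 (interaction 0.75, SE 0.16, adjusted p = 0.00557). Chaf1a, Gins3 and Mcm5 had interactions of 0.83, 0.72 and 0.67. The calls of these 7 genes held with each array left out in turn. Those of Mcm2 (0.56), Cdc45 (0.54), Dbf4 (0.53), Fen1 (0.50), Mcm4 (0.48) and Orc3 (-0.63) did not. The highest adjusted p for them was 0.0544, 0.093, 0.0899, 0.113, 0.142 and 0.0648. The count was 8 without DMSO replicate 1 or without VE-821 replicate 1. When every kept probe was tested, the other Mcm4 probes had interactions of 0.24 and 0.31, neither called (adjusted p = 0.458 and 0.254).

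No interaction was called among the 7 polymerase and primase genes, the 5 clamp and loader genes or the 3 RPA genes, whose medians were 0.21, 0.19 and 0.08. Uhrf1 stood at -0.07 (95% interval -0.42 to 0.27), with a sum of -1.57 against a measured -1.64, and Mcm7 at -0.03 (95% interval -0.39 to 0.33). For these genes a p above the threshold does not show that the effects add up, since the median SE of an interaction was 0.157.

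**Figure D4:**
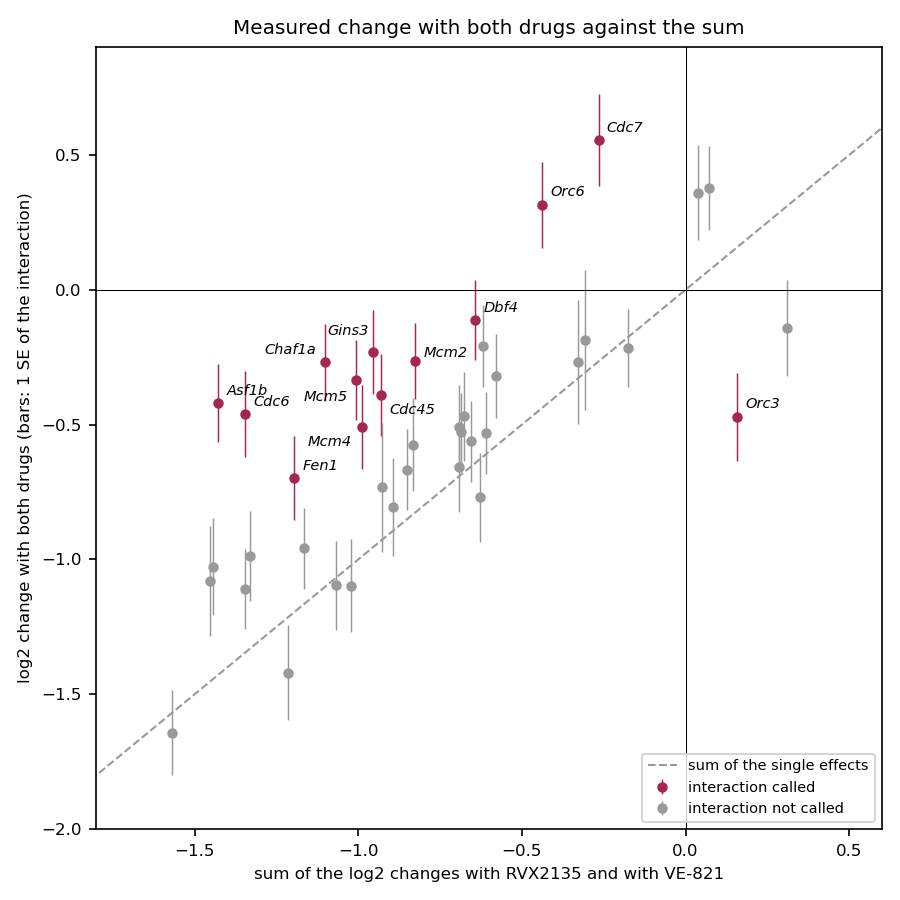
Log2 change with both drugs against DMSO (y axis) and the sum of the changes with the single drugs (x axis), 1 point per gene, with 1 SE of the interaction as the bar. Points on the dashed line equal the sum. The 13 called genes are red and named, and 12 of them lie above the line.

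Probes of 1 gene did not always move together. 13 genes had more than 1 probe above the detection filter, and the brightest stood for the gene in all values above. When every kept probe was tested, the second Orc4 probe measured 5.06 and 5.08 with DMSO, 5.44 and 5.19 with RVX2135, 4.79 and 5.00 with VE-821, and 6.21 and 6.08 with both drugs. It rose by 1.07 with both drugs (SE 0.12, adjusted p = 1.54e-05), with both arrays above all others, while the brightest was -0.14 there (SE 0.13, adjusted p = 0.353). Which transcripts these probes match was not tested. The second Orc2 probe was detected on 3 arrays and was -0.17 with both drugs (SE 0.15, adjusted p = 0.366), against 0.36 for the brightest. For Mcm6, the 3 other probes fell by 0.53, 0.62 and 0.57 with both drugs (adjusted p = 0.00456, 0.00116 and 0.0055), where the brightest was -0.21 and not called. With VE-821 they were -0.40, -0.40 and -0.43, the first and second called and the dimmest not (adjusted p = 0.0555), and with RVX2135 all 4 probes fell. The other Mcm4 probes fell with RVX2135 (-0.63 and -0.70) and with both drugs (-0.66 and -0.74). Between the single drugs they were at -0.36 and -0.35, not called (adjusted p = 0.119 and 0.084), where the brightest was called. Their interactions of 0.24 and 0.31 were not called either. Of the 4 Lig1 probes, 3 fell in each treatment and the dimmest was -0.06, -0.07 and -0.01. Cdc6 had 2 further probes and Uhrf1 1, each detected on 4 arrays or fewer, so these genes rest on a single bright probe. The second Cdc45 probe was detected on 3 arrays, and its interaction was 0.13, not called (adjusted p = 0.605).

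**Figure D5:**
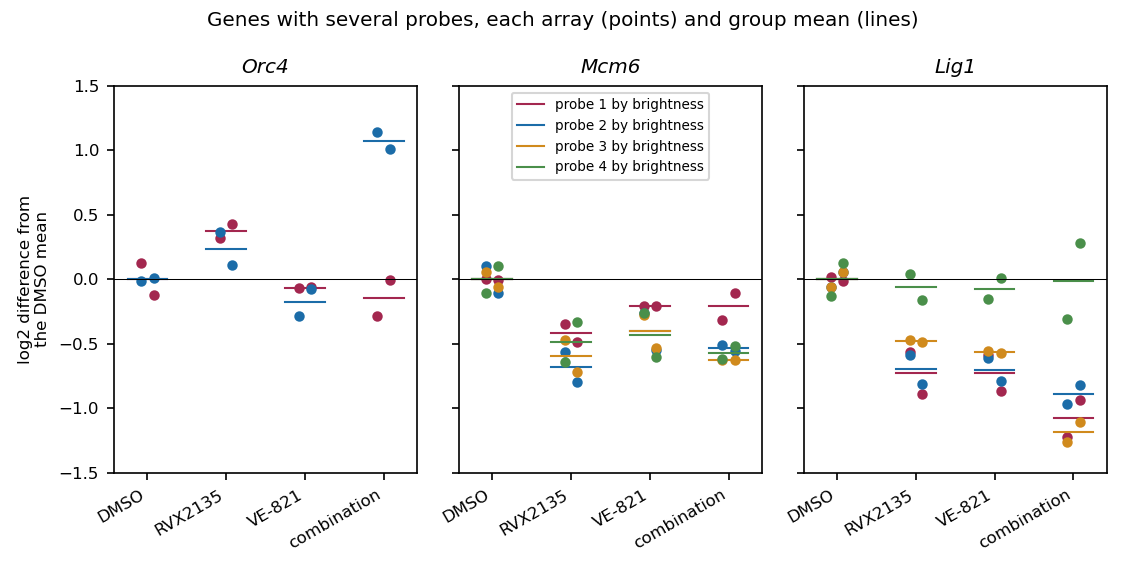
Log2 difference from the DMSO mean of the same probe (y axis) on each array (points) with group means (lines), for the kept probes of Orc4, Mcm6 and Lig1, ordered by brightness. The second Orc4 probe rises to 1.07 with both drugs where the first does not, and the 4 Mcm6 probes all lie below 0 in every treatment.

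Some calls near the threshold ended in other settings than a left-out array. Without the detection filter, more genes entered the adjustment, and the calls of Orc4, Cdt1, Rfc1 and Rfc2 with RVX2135 and of Cdc6, Pold3, Pcna, Rfc2, Rfc5 and Chaf1b with VE-821 were lost. Between treatments, those of Fen1 and Rfc2 for both drugs against RVX2135, of Rfc2 and Rfc4 for both drugs against VE-821 and of Orc4, Pola2 and Chaf1b between the single drugs were lost as well, and so was the interaction of Mcm4. With scaling to the 75th percentile Orc4 and Pola2 were no longer called between the single drugs, nor Rfc2 for both drugs against VE-821. The authors' values ended the call of Pold2 with VE-821, and an intensity trend those of Orc4 with RVX2135 and of Prim2 for both drugs against VE-821.

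Other genes that work at the fork, from a list of 44 that are no members, also fell more often than they rose. Of 34 measured, 18 fell and 1 rose with RVX2135, 15 fell and 2 rose with VE-821, and 19 fell and 2 rose with both drugs, with medians of -0.39, -0.29 and -0.36. Of all genes 15.4% fell and 15% rose with RVX2135, 11.7% and 12.1% with VE-821, and 30.8% and 28.9% with both drugs. Pclaf, a small partner of the clamp, measured 10.26 and 10.22 with DMSO, 9.65 and 9.51 with RVX2135, 9.15 and 8.88 with VE-821, and 8.03 and 8.07 with both drugs. The groups did not overlap, and it changed by -0.66, -1.23 and -2.19 (SE 0.12, adjusted p = 3.5e-08 for both drugs), or 4.57-fold lower with both drugs. Smarcad1, a chromatin remodeller at forks, fell by 1.79 with both drugs (SE 0.15, adjusted p = 1.48e-06), Mms22l, a fork repair factor, by 1.52 (SE 0.18, adjusted p = 2.15e-05), and Wdhd1, which ties polymerase alpha to the helicase, by 1.28 (SE 0.10, adjusted p = 1e-06). Recql4, a helicase needed for origin firing, measured 6.22 and 6.33 with DMSO, 5.75 and 5.68 with RVX2135, 6.41 and 6.41 with VE-821, and 6.88 and 6.57 with both drugs. As with Cdc7, RVX2135 was lowest and both drugs highest, with a fall of 0.56 (SE 0.12, adjusted p = 0.00444), a rise of 0.45 (SE 0.12, adjusted p = 0.0064) and an interaction of 0.88 (SE 0.17, adjusted p = 0.00332). Rif1, which restrains origin firing, rose by 0.32 with both drugs (SE 0.11, adjusted p = 0.0226). It was dim, at log2 values of 4.57 to 5.21, and was detected on 0 RVX2135 arrays and 1 VE-821 array. These other genes were not refitted with arrays left out.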

How the data were processed

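Transcripts of λ820 cells in 4 treatment groups were measured on 8 Illumina bead arrays, grouped by their titles. The authors deposited non-normalized probe intensities with a detection p-value per probe and array. A background had been subtracted before deposit, since values fall to -14.1. A second deposited table holds intensities after the authors' normalization, whose method was not given in the sources used here. The software named, per the submitters' processing notes, is GenomeStudio, with no version. Of 25697 probes, 23978 had 1 gene symbol, 0 several and 1719 none, and 23962 received their current symbol through Entrez identifiers (16 kept the platform's).

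With limma 3.58.1 in R 4.3.3, neqc estimated the background from the detection p-values and took log2 after quantile normalization, with an offset of 16. Kept were the 11761 probes with a detection p under 0.05 on each array of some group, and the brightest stood for its gene, which left 7947 genes. All 8 arrays entered a single model with a mean for each group (lmFit and eBayes, 4 residual and 7.21 prior degrees of freedom), with 7 contrasts and Benjamini-Hochberg adjustment over all genes of a contrast. The number of arrays limits the precision (median SE of a member 0.111). On simulated data with 100 genes changed by 0.5 and 100 by 1 among 7947, the fit for RVX2135 against DMSO called 69% of the smaller and 100% of the larger changes, and 8.65% of its calls were false. In the measured data a larger share was called in this comparison (15.4% lower and 15% higher), so these rates need not hold there.

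Members, roles, the list of other genes and the motifs were chosen with earlier results of these data known. The text names any measured member, gives every array for the extremes of a role with both drugs, for called interactions and for genes called against 1 drug alone or in opposite directions, and of the other genes the 4 largest called falls and up to 4 rises with both drugs. Alternatives were 2 other normalizations, the authors' values, 2 other detection filters, every kept probe, the replicate number as a block, an intensity trend and each array left out in turn.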

Additional observations from a re-analysis of the deposited data

Results flagged for a closer look

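An interaction, meaning that the effect of a drug differed by the presence of the other, was called for 13 replication genes in the fit over all genes. It was positive for 12 of 41 (29.3%) and negative for 1 (2.44%), beside 13.1% and 15.5% of all genes. In log2 units, the interaction was 1.01 for Asf1b, 0.88 for Cdc6, 0.83 for Chaf1a, 0.82 for Cdc7 and 0.75 for Orc6. It was 0.72 for Gins3, 0.67 for Mcm5, 0.56 for Mcm2, 0.54 for Cdc45 and 0.53 for Dbf4. Fen1 had 0.50, Mcm4 0.48 and Orc3 -0.63. The calls of Mcm2, Cdc45, Dbf4, Fen1, Mcm4 and Orc3 did not hold with each array left out in turn. By the other probes of Mcm4 and Cdc45 the interaction was not called.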

How the results depend on the processing

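With 2 arrays a group, single arrays set many calls. Over all left-out arrays and 7 comparisons, 196 of 2296 member results lost their call, 15 gained one and 0 turned direction as a call. With VE-821 against DMSO, members called went from 20 to between 8 and 20 with 1 array left out (8 without VE-821 replicate 2, 9 without DMSO replicate 1, 10 without VE-821 replicate 1 and 11 without DMSO replicate 2), and all genes called from 1891 to between 946 and 1933. RVX2135 against DMSO called 21 to 31 members and 1440 to 2459 genes. RVX2135 against VE-821 called 11 to 18 members and 1377 to 2159 genes, and the interaction 8 to 12 members and 1549 to 2048 genes. No other alternative moved a count of members or genes by over 1.5 times.

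With every kept probe tested, the second probe reversed these log2 values: Uhrf1 with VE-821 (0.026), Orc2 with both drugs against DMSO (-0.17) and against RVX2135 (-0.070) and with RVX2135 against VE-821 (0.057), Cdc6 with both drugs against RVX2135 (-0.036), and Orc4 with both drugs against DMSO (1.07), RVX2135 (0.84) and VE-821 (1.25) and in the interaction (1.01). In 11 further results the second probe kept the sign but lost the call. Among them were the interactions of Mcm4 and Cdc45, and Mcm4 between the single drugs. In 5 results the second probe was called where the brightest was not. They were Orc5 and Mcm6 with both drugs, Mcm6 with VE-821, Rfc4 between the single drugs and the interaction of Lig1. With the replicate number as a block, members called were 31, 21 and 34 against DMSO for RVX2135, VE-821 and both, 21 and 17 for both against RVX2135 and VE-821, 19 for RVX2135 against VE-821 and 13 for the interaction. Under the block Orc4 with RVX2135 (adjusted p = 0.0524) and Rfc4 for both drugs against VE-821 (0.055) lost their calls, and Pcna with RVX2135 (0.0407) and between both drugs and RVX2135 (0.0229) and Cdc45 with VE-821 (0.0452) gained one. Same-numbered arrays of different groups correlated at -0.0312 to 0.178 in their deviations, so the numbers are not taken as pairs. Scaling to the 75th percentile shifted the median of all genes by at most 0.07.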
